A study of Rattus norvegicus with 18 samples.

Results

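Chemokines are small secreted or membrane-anchored proteins that direct the movement of leukocytes through receptors on the target cell. The genes described here are the chemokine ligands and receptors among rat synovial CD11b+ cells after knee surgery, and they were taken as every gene whose name begins with Ccl, Cxcl, Xcl, Cx3cl, Ccr, Cxcr, Xcr or Ackr and a number. This gave 54 of 30643 genes, of which 34 were ligands and 20 were receptors. A member was tested in a week when its mean over the libraries of that week was at least 10 normalized reads, and 41 members passed at 4 weeks and 42 at 12 weeks. At 4-weeks these were 26 ligands and 15 receptors, and at 12-weeks they were 25 ligands and 17 receptors. In all 40 members were tested in both weeks, Cxcl17 at 4-weeks only, and Ccr9 and Cxcr6 at 12-weeks only. The other 11 (Ccl1, Ccl19, Ccl20, Ccl25, Ccl26, Ccl28, Cxcl6, Xcl1, Ccr1l1, Ccr4 and Ccr8) had a mean below 10 in both weeks. Ccr2 and Ackr1 were not analysed here.

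Male wild type Sprague Dawley rats, 12 weeks old, had either surgical osteoarthritis (OA), in which the anterior cruciate and medial meniscotibial ligaments were cut, or a sham surgery in which the joint was opened and no ligament was cut. Synovium was digested 4 or 12 weeks later, and cells were taken with magnetic beads against CD11b/c, an integrin of macrophages, monocytes and granulocytes, so that a library is a bulk measure of the bead-bound cells. Each library pooled 4 rats at 4 weeks (5 OA and 5 sham libraries) and 3 rats at 12 weeks (4 OA and 4 sham libraries). Both groups carried an arthrotomy, and no unoperated joint was measured.

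Chemokines are grouped by the position of their first cysteines into CC, CXC, XC and CX3C families, and most act through receptors coupled to inhibitory G proteins. Macrophages make many of them in response to interferon or to signals that act through NF-kB, and the atypical receptors (Ackr) bind chemokines and remove them without that signal. In the synovium, chemokines bring monocytes, T cells and granulocytes into the joint, and Cx3cr1, the receptor of Cx3cl1, marks macrophages of the synovial lining.

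Values are reads per gene divided by a size factor set within each week, so a level at 4 weeks cannot be set against a level at 12 weeks, nor a level of 1 gene against that of another, since gene length is not corrected. Recovered reads ran from 4662344 to 17235069 per library at 4 weeks, where sham replicate 3 had the fewest, and from 10976114 to 18080503 at 12 weeks. All 12 macrophage markers examined were present in both weeks, and so were markers of endothelium, fibroblasts, skeletal muscle and fat. The summed level of the 10 skeletal muscle markers analysed did not overlap between groups at 12 weeks, at 1285 to 2220 normalized reads in OA and 926 to 1135 in sham. Sham replicate 3 stood apart at 4 weeks, since it held the highest or lowest value of 22 of the 41 members (53.7%) and of 64.1% of all genes tested. At 12 weeks sham replicate 3 did so for 25 of 42 members (59.5%) and 43.4% of all genes, and results are also given without these libraries.

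At 4-weeks after OA induction, the 3 interferon-inducible ligands of Cxcr3 (Cxcl9, Cxcl10 and Cxcl11), the anchored ligand Cx3cl1 and the macrophage ligand Ccl9 had lower values in OA, and Cxcl14 and Ccl21 had higher ones. None of these passed the study's criteria, a log2 fold change of at least 0.5 with an adjusted p under 0.05, when applied in limma. The study itself applied them in DESeq2. Limma called 0 of 41 members and 0% of the 14861 genes tested, and edgeR also called 0 of each. DESeq2 called 0 members and 0.195% of all genes. The smallest adjusted p of a member in limma was 0.491. At an unadjusted p under 0.05, there were 10 of 41 members (24.4%), against 7.92% of all genes. Of these 10, 2 were higher in OA (4.1% of all genes) and 8 were lower (3.82% of all genes). One of the 8, Cxcl17, passed the mean of 10 only through sham, where it was higher, and had to differ for that reason, which leaves 7. By gene class the 10 were 9 of 26 ligands and 1 of 15 receptors (Ccr3). The 9 ligands and the share of 24.4% still include Cxcl17. With edgeR and with DESeq2, 9 members had an unadjusted p under 0.05. The median log2 fold change of the members was -0.22, beside 0.028 over all genes tested. Leaving out sham replicate 3, 11 of 40 members had an unadjusted p under 0.05, against 10.4% of all genes; Ccl24 and Ccr3 were lost, Cxcl17 was no longer tested, and Cxcl3, Ccr6, Cxcr1 and Cxcr3 were gained. The members with a positive log2 fold change went from 18 of 41 to 11 of 40 without it. The count fell to 5 without OA replicate 1 (against 6.69% of all genes), 5 without OA replicate 4 (against 6.23%) and 6 without sham replicate 4 (against 7.18%).

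At 12-weeks, Cxcl9, Cxcl10 and Cx3cl1 again had lower mean values and Cxcl14 higher ones in OA, and Cxcl16 and the decoy receptor Ackr2 had higher ones. Limma and edgeR called 0 of 42 members and 0% of the 14666 genes, and DESeq2 called 1 member, Cxcl10 (adjusted p = 0.0406), against 0.675% of all genes. At an unadjusted p under 0.05, there were 6 members (14.3%), against 12.4% of all genes, so the share was close to that of the table as a whole. Of these, 3 were higher (5.75% of all genes) and 3 were lower (6.62% of all genes), and the smallest adjusted p in limma was 0.278. They were 5 of 25 ligands and 1 of 17 receptors. The median log2 fold change of the members was -0.033, beside -0.011 over all genes tested. Without sham replicate 3, 9 of 42 members had an unadjusted p under 0.05, against 12.9% of all genes, with Ccl6, Ccl21 and Ackr3 gained and 0 lost.

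**Figure D1:**
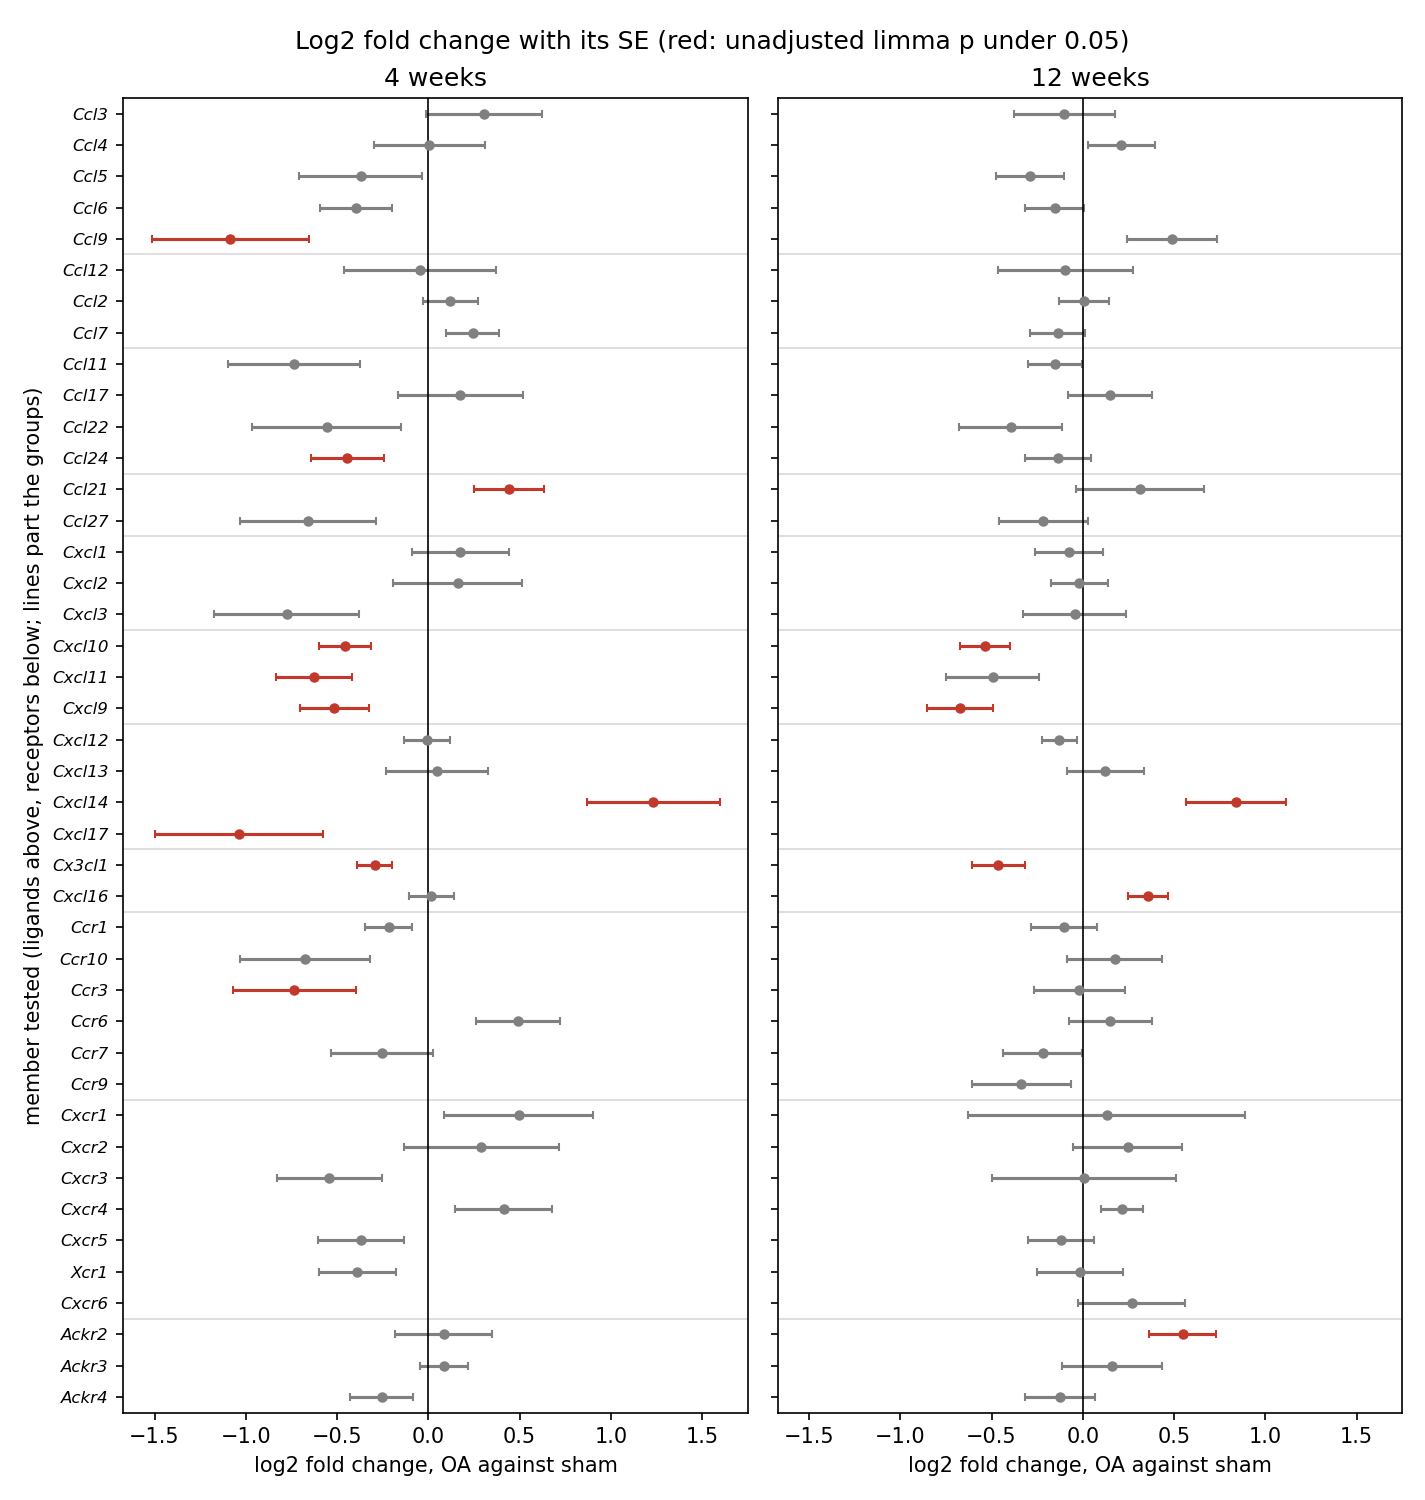
Log2 fold change of OA against sham with its standard error for 42 of the 43 members tested, at 4 weeks (left) and 12 weeks (right), ligands above and receptors below, with lines between role groups. Red points had an unadjusted limma p under 0.05, 10 at 4 weeks and 6 at 12 weeks, and 0 passed the adjusted threshold. The 10 include Cxcl17, which passed the mean of 10 only through sham.

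Of the 40 members tested in both weeks, 4 had an unadjusted p under 0.05 in the same direction each time: Cxcl9, Cxcl10 and Cx3cl1 lower and Cxcl14 higher in OA. This was 10% of the members, against 2.3% of the 14420 genes tested in both weeks. Without sham replicate 3 of each week it was 5 members, with Ccl21 added, against 2.46% of all genes. The sign of the log2 fold change was shared between weeks by 33 of 40 members (82.5%) and by 58.4% of all genes, and without sham replicate 3 of each week by 28 of 40 (70%) and by 63.3%. The libraries of the weeks are of different animals, but the 4 genes were singled out for these values. Their exact permutation p-values and alternative fits, given below, use the same libraries. They describe the values and are no independent support.

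**Figure D2:**
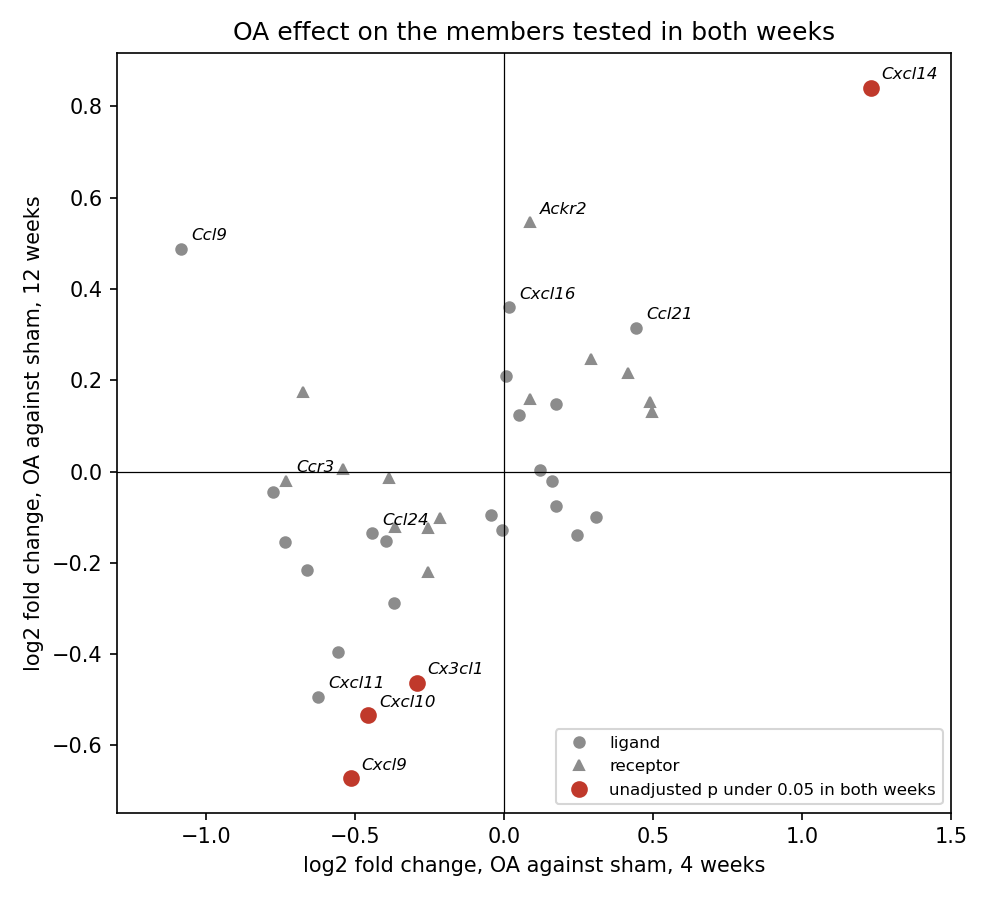
Log2 fold change of OA against sham at 4 weeks (x axis) and at 12 weeks (y axis) for 39 of the 40 members tested in both weeks, with ligands as circles and receptors as triangles. The 4 red points had an unadjusted p under 0.05 in both weeks, Cxcl14 in the upper right and Cxcl9, Cxcl10 and Cx3cl1 in the lower left, while Ccl9, Ccr10 and, close to 0 at 12 weeks, Cxcr3 lie in the upper left.

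Cxcl9, Cxcl10 and Cxcl11 attract T cells and NK cells that carry Cxcr3, and macrophages make them after interferon gamma. Their genes lie next to each other on rat chromosome 14. The promoter windows of the 3 genes are shown since they were the role group in which every member was lower in both weeks. Each window runs from 250 bases before to 50 after the start of the gene, on the + strand of GRCr8, from RefSeq, at chr14:16006916-16007215 for Cxcl9, chr14:15988816-15989115 for Cxcl10 and chr14:15973478-15973777 for Cxcl11. Capitals mark matches, on either strand, to an interferon-response motif (GAAANNGAA, or TTCNNTTTC on the other strand), a STAT motif (TTCNNNGAA, its own reverse) or an NF-kB motif (GGANNTTCC, or GGAANNTCC on the other strand).
Cxcl9: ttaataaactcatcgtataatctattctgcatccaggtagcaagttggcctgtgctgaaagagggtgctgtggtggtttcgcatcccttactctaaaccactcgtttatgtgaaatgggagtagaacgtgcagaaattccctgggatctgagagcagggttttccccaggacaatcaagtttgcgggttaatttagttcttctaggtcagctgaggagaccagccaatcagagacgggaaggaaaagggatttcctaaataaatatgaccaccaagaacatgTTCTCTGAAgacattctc
Cxcl10: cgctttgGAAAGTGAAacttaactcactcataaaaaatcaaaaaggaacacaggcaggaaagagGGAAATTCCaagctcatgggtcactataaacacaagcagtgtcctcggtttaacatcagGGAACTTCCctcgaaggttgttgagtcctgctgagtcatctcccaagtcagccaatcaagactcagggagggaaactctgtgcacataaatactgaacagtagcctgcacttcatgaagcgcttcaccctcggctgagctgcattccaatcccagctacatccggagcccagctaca
Cxcl11: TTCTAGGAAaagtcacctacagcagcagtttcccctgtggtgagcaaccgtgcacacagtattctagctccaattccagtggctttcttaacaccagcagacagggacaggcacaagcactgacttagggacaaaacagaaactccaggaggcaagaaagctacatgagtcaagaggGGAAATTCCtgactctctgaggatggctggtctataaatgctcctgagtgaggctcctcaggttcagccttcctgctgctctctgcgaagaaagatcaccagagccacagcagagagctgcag
In Cxcl10 the interferon-response match began 243 bases before the start, and the 2 NF-kB matches began 186 and 127 bases before it. In Cxcl11 the STAT match began 250 and the NF-kB match 73 bases before the start. The only match in Cxcl9 was a STAT match after the start. No capitals overlap between motifs in these windows. Of 33469 windows of the same length, 9.71% held the interferon-response motif, 8.87% the STAT motif and 4.09% the NF-kB motif. Of the 32 tested members with a window, 1 held the first (Cxcl10), 6 the second (18.8%: Ccl7, Ccl17, Ccl24, Ccr6, Cxcl9 and Cxcl11) and 7 the third (21.9%: Ccl7, Ccl12, Ccl24, Ccr3, Cxcl1, Cxcl10 and Cxcl11). In all 41 of 54 members were matched to a window. A match is a run of letters and was not tested as a binding site.

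Cxcl10 (ENSRNOG00000022256) at 4-weeks was at 262, 278, 214, 245 and 234 normalized reads in the 5 OA libraries and at 464, 340.3, 337, 334 and 246 in the 5 sham libraries. Sham replicate 5 lay inside the OA range, and the other 4 sham libraries were above every OA library. On the log2 scale OA minus sham came to -0.46 (SE 0.14), and limma gave an adjusted p of 0.511. Exact permutation gave a p of 0.0238 (two-sided, where the smallest possible is 0.00794). At 12-weeks it was at 485, 655, 506 and 456 in the 4 OA and 844, 882, 619 and 699.9 in the 4 sham libraries. One OA value, 655, was above the lowest sham value, 619, and the groups otherwise did not mix. OA differed from sham by -0.53 (SE 0.14) on the log2 scale, at a limma adjusted p of 0.278. DESeq2 gave an adjusted p of 0.0406, and over all alternatives the adjusted p ran from 0.0406 to 0.663. By exact permutation p was 0.0571, where the smallest possible is 0.0286. In bulk libraries such as these, fewer cells of a type and less RNA per cell cannot be told apart.

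Cxcl9 (ENSRNOG00000022242) at 4-weeks was at 214, 275, 329.6, 287 and 421 in OA and 476, 466, 566, 363 and 308 in sham. The groups overlapped, since sham replicates 4 and 5 lay within the OA range. Its difference from sham was -0.51 (SE 0.19) in log2 units, and the limma adjusted p was 0.575. The exact permutation p was 0.0556. At 12-weeks Cxcl9 was at 364, 354, 491 and 275 in OA and 537, 461, 742 and 613 in sham. Only OA replicate 3, at 491, exceeded the lowest sham library. The log2 fold change was -0.67 (SE 0.18) and the adjusted p was 0.278 in limma, with an exact permutation p of 0.0571. Without sham replicate 3 the log2 fold changes were -0.41 at 4 weeks and -0.55 at 12 weeks.

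Cxcl11 (ENSRNOG00000022298) had few reads, at 14.6, 15.2, 16.5, 22.4 and 18.4 in OA and 37.8, 26.2, 23.2, 25.8 and 24.9 in sham at 4-weeks. Every OA library was below every sham library, and Cxcl11 was the only member whose groups did not overlap at that time, against 1.87% of all genes. This gave a log2 fold change of -0.63 (SE 0.21) and a limma adjusted p of 0.554. By exact permutation p was 0.00794, the smallest possible. At 12-weeks it was at 25.3, 25.5, 34.3 and 15.0 in OA and 38.5, 30.9, 28.0 and 41.4 in sham, where the groups overlapped, and the log2 fold change of -0.49 (SE 0.25) had an unadjusted limma p of 0.0810. Their receptor Cxcr3 averaged 12.3 ± 4.19 (SD, n = 5) in OA and 17.7 ± 3.18 in sham at 4-weeks, and 23.2 ± 7.46 and 27.0 ± 15.9 at 12-weeks (n = 4), with log2 fold changes of -0.54 (SE 0.29) and 0.0052 (SE 0.50). The 12-week value of Cxcr3 had no stable sign, at -0.25 in edgeR, -0.23 in DESeq2 and from -0.55 to 0.33 with 1 library left out.

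Summed T cell and NK cell markers are given beside these ligands. Cd3d, Cd3e and Cd3g did not reach the mean of 10 in either week and were not tested. Klrk1 held most of the NK cell sum, with 4-week means of 187 in OA and 194 in sham. The 10 T cell markers summed to 212 to 277 normalized reads in OA and 230 to 518 in sham at 4-weeks, and to 267 to 349 and 295 to 364 at 12-weeks. The 7 NK cell markers analysed summed to 201 to 277 in OA and 195 to 302 in sham at 4-weeks, and to 292 to 358 and 290 to 553 at 12-weeks. The groups overlapped for both lists in both weeks. At 4-weeks 0 of 4 tested T cell markers and 0 of 3 NK cell markers passed an unadjusted p under 0.05, against 7.92% of all genes. At 12-weeks 0 of 5 and 1 of 5 did, against 12.4% of all genes, and lists this short cannot be told from those shares. All 4 tested T cell markers had a negative log2 fold change at 4-weeks (median -0.34), and 2 of 5 a positive one at 12-weeks. For NK cell markers 2 of 3 were negative at 4-weeks, and all 5 at 12-weeks (median -0.33). The groups of Ncr1 did not overlap at 12-weeks (6.29% of all genes), with a log2 fold change of -0.83 (SE 0.29). None of the lists' summed levels was at 0, and their part in the result was not tested. The transcript of interferon gamma (Ifng) was at or near the limit of 3 reads per library, with means of 0.910 ± 0.751 in OA and 3.06 ± 4.01 in sham at 4-weeks and of 1.53 ± 0.654 and 1.14 ± 1.06 at 12-weeks, so no difference could be read at this depth.

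Cx3cl1 (fractalkine, ENSRNOG00000016326) is held on the surface of endothelial cells and other cells and can be shed. At 4-weeks it was at 408, 379, 411, 436 and 476 in OA and 492, 469, 557, 470.0 and 607 in sham. The highest OA library, at 476, was above 2 sham libraries at 469 and 470.0, and every other OA value was lower than every sham value. Expressed in log2, OA was -0.29 (SE 0.094) relative to sham, with 0.543 as the limma adjusted p. Exact permutation gave a p of 0.0238. At 12-weeks Cx3cl1 was at 511, 588, 623 and 512 in OA and 832, 550.0, 888 and 853 in sham, and sham replicate 2 lay among the OA libraries. On the log2 scale OA minus sham came to -0.46 (SE 0.15), and limma gave an adjusted p of 0.311. The exact permutation p was 0.0857. The 9 endothelial markers analysed had lower median sums in OA in both weeks, at 46111 to 60999 in OA and 48733 to 64245 in sham at 4-weeks and at 44832 to 56526 and 52559 to 74374 at 12-weeks. The sums overlapped, and 8 of 9 tested endothelial markers had a negative log2 fold change in each week. At an unadjusted p under 0.05 there were 0 and then 1 (11.1%), against 7.92% and 12.4% of all genes. The part of endothelial cells in the lower Cx3cl1 was not tested.

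Cx3cr1 (ENSRNOG00000018509), the receptor of Cx3cl1, is left out by the naming pattern and is given as its partner. It was higher in OA with no overlap at 4-weeks (1.87% of all genes) or 12-weeks (6.29% of all genes), opposite in direction to the ligand. At 4-weeks it was at 1789, 1761, 1679.8, 1637 and 1568 in OA and 1327, 876, 655, 922 and 1525 in sham, a log2 fold change of 0.73 (SE 0.19) with an adjusted p of 0.403 in limma and 0.0721 in DESeq2. At 12-weeks it was at 1620.5, 2313, 1792 and 2796 in OA and 1582, 989, 956 and 1351 in sham. The lowest OA library, at 1620.5, was just above the highest sham library at 1582. OA differed from sham by 0.80 (SE 0.20) on the log2 scale, at a limma adjusted p of 0.275, and DESeq2 called it at an adjusted p of 0.0167. Over all alternatives the adjusted p ran from 0.0721 to 0.796 at 4-weeks and from 0.0167 to 0.637 at 12-weeks. The exact permutation p was the smallest possible in each week, 0.00794 and 0.0286. Cx3cr1 was counted in a list of chemokine genes and related ones that the pattern leaves out. Of the other 9 tested genes of that list, Ccrl2, Cmklr1 and Cmtm7 were higher in OA at an unadjusted p under 0.05 at 4-weeks. At 12-weeks Cmtm7 was higher and Pitpnm3 lower. With Cx3cr1 counted, 40% of the 10 genes passed at 4-weeks and 30% at 12-weeks, against 7.92% and 12.4% of all genes. The list is mixed, so these are not shares of chemokine genes. Ccrl2, an atypical receptor that binds chemerin, was at 1021 ± 38.7 (SD, n = 5) in OA and 875 ± 76.6 in sham at 4-weeks. It differed by 0.23 (SE 0.075) in log2, at a limma adjusted p of 0.559.

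Cxcl14 (ENSRNOG00000011984), a CXC ligand made by fibroblasts and epithelial cells, had the greatest log2 fold change among the members in either week. At 4-weeks it was at 143, 281, 73.5, 90.6 and 142 in OA and 57.1, 35.9, 48.7, 116 and 43.3 in sham. Sham replicate 4 lay within the OA range, and the other 4 sham libraries were below all OA libraries. Its difference from sham was 1.23 (SE 0.36) in log2 units, and the limma adjusted p was 0.491. Exact permutation gave a p of 0.0238. At 12-weeks it was at 223, 124, 211 and 145 in OA and 89.2, 56.7, 129.7 and 122 in sham, and the OA library at 124 lay below the sham library at 129.7. This gave a log2 fold change of 0.84 (SE 0.27) and a limma adjusted p of 0.318. The exact permutation p was 0.0571. Of the 13 tested fibroblast markers, 3 were higher at an unadjusted p under 0.05 at 4-weeks (23.1%, against 7.92% of all genes). At 12-weeks 11 were higher and 1 lower (92.3%, against 12.4% of all genes). Their sum was 75304 to 115818 in OA and 49529.9 to 115827 in sham at 4-weeks, and 90062 to 116169 and 60271 to 93328 at 12-weeks. The part of fibroblasts in the higher Cxcl14 was not tested. The promoter windows of Cxcl14 and Cx3cl1 held none of the 3 motifs.

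**Figure D3:**
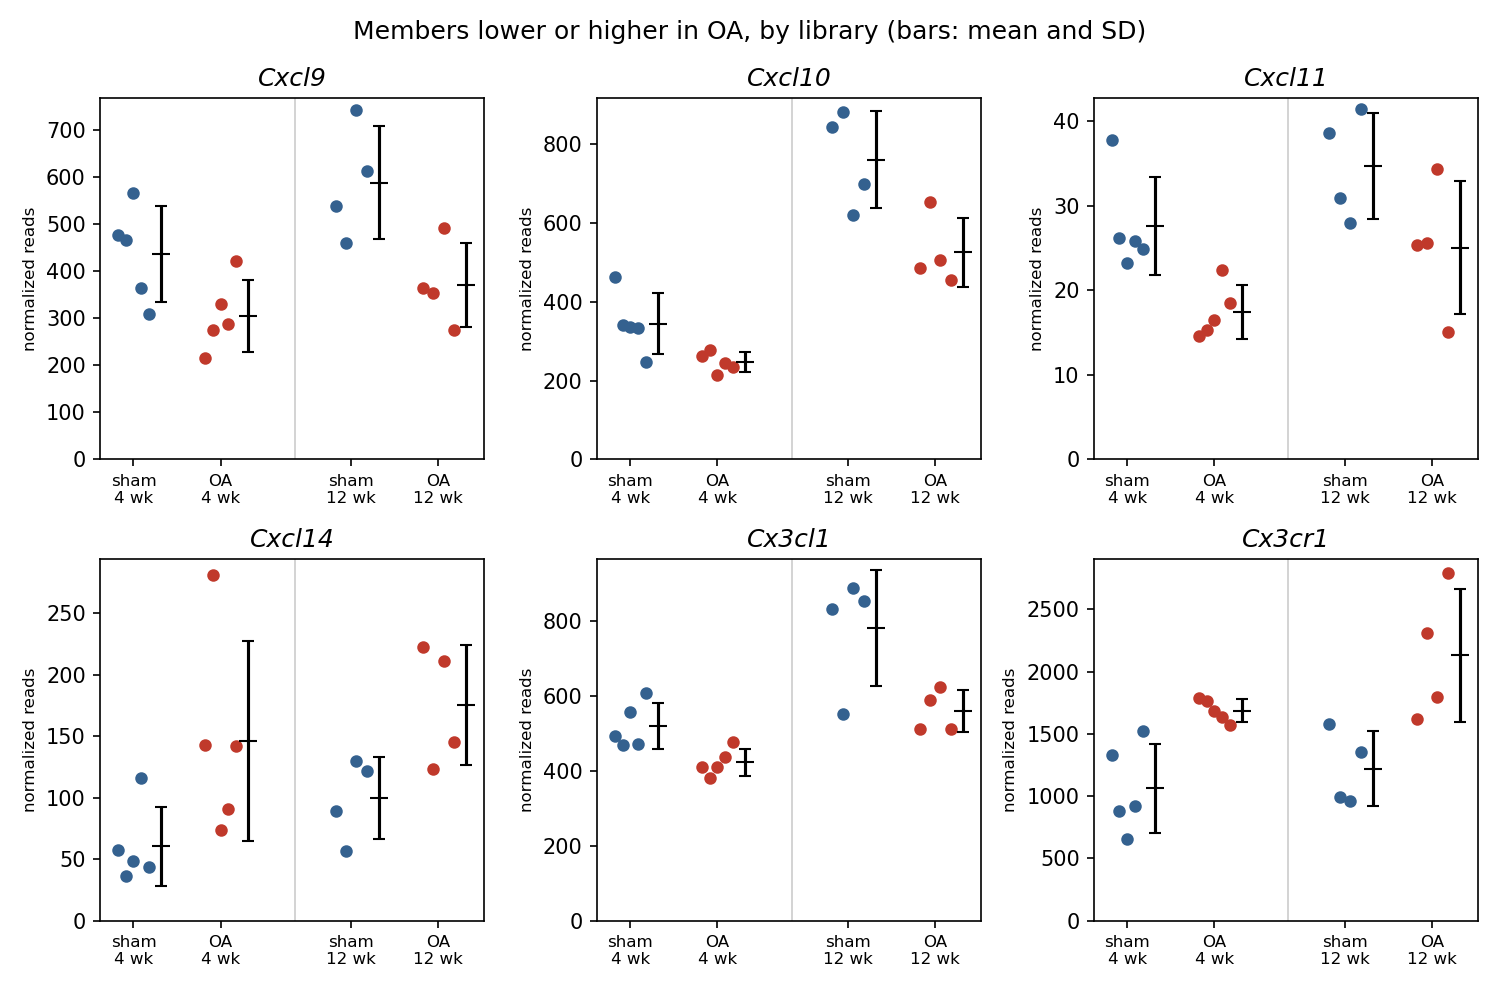
Normalized reads (y axis, from 0) of 6 genes in each sham (blue) and OA (red) library at 4 weeks (5 per group) and 12 weeks (4 per group), with black bars for the mean and SD. Cxcl9, Cxcl10, Cxcl11 and Cx3cl1 sit lower in OA in both weeks, and Cxcl14 and the receptor Cx3cr1 sit higher; levels cannot be compared between weeks or between genes.

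The ligands of Ccr2, which draw monocytes from blood, did not pass the test in either week. Ccl2 was at 3490.1, 4295, 2744, 3291 and 2572 in OA and 3386, 3123, 2203, 3084 and 3198 in sham at 4-weeks, and at 7568, 6447, 5667 and 5287 in OA and 5012, 5848, 7062 and 6980.1 in sham at 12-weeks. The groups overlapped each time, with log2 fold changes of 0.12 (SE 0.15) and 0.0043 (SE 0.14) and adjusted p-values of 0.833 and 0.990 in limma. Ccl7 had log2 fold changes of 0.24 (SE 0.14) and -0.14 (SE 0.15), and Ccl12 of -0.044 (SE 0.42) and -0.096 (SE 0.37). In sham replicate 3 of 4 weeks all 3 were below every other sham library, and without it the log2 fold changes at 4-weeks were 0.013 for Ccl2, 0.13 for Ccl7 and -0.37 for Ccl12.

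Among the ligands of Ccr1 and related receptors, which act on monocytes and osteoclast precursors, Ccl9 stood out at 4-weeks. It was at 846, 962, 233, 388 and 268 in OA and 1769.9, 1008, 462, 1259.9 and 818 in sham, where both groups spread widely and overlapped. Expressed in log2, OA was -1.08 (SE 0.43) relative to sham, with 0.598 as the limma adjusted p. Exact permutation gave a p of 0.0635. At 12-weeks Ccl9 was at 192, 167, 154 and 365 in OA and 168, 159.9, 113 and 153 in sham. Its log2 fold change of 0.49 (SE 0.25) then had the opposite sign, with an adjusted p of 0.439 in limma. Ccl6, a close relative, was at 1879.5, 2224, 3499.7, 2270.5 and 1588 in OA and 2380.4, 3719.6, 3491, 2827 and 2381 in sham at 4-weeks, and at 3379, 4209, 3380.4 and 3859 in OA and 4174, 5099, 2857 and 4659 in sham at 12-weeks. Its groups overlapped, and its log2 fold changes were -0.40 (SE 0.20) and -0.15 (SE 0.16), with adjusted p-values of 0.646 and 0.705 in limma. The log2 fold changes of Ccl3, Ccl4 and Ccl5 were 0.31, 0.0065 and -0.37 at 4-weeks and -0.10, 0.21 and -0.29 at 12-weeks, with unadjusted p above 0.05 each time. The 4-week value of Ccl4 turned to -0.16 in edgeR and -0.13 in DESeq2. Close copies within these families, such as Ccl6 and Ccl9 or Cxcl1, Cxcl2 and Cxcl3, can share reads, and how shared reads were counted is not given in the sources used here.

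The eosinophil attractant Ccl24 (eotaxin-2) was at 1414 ± 515 (SD, n = 5) in OA and 1870.4 ± 356 in sham at 4-weeks. The log2 fold change was -0.44 (SE 0.20), with an unadjusted p of 0.0450 and an adjusted p of 0.619 in limma. OA replicate 3 was at 2325, while the other OA libraries ran from 1080.2 to 1286. At 12-weeks the log2 fold change was -0.13 (SE 0.18). Ccr3, the eotaxin receptor of eosinophils, was at 13.2, 10.5, 16.5, 9.97 and 8.68 in OA and 15.7, 31.0, 27.9, 23.4 and 9.21 in sham at 4-weeks, giving a log2 fold change of -0.73 (SE 0.34) and an adjusted p of 0.629 in limma. By 12-weeks the value was -0.020 (SE 0.25). Without sham replicate 3 the unadjusted limma p at 4-weeks was 0.0894 for Ccl24 and 0.0910 for Ccr3. The 5 eosinophil markers analysed summed to 36.2 to 518 in OA and 53.3 to 167 in sham at 4-weeks and to 46.1 to 138 and 87.7 to 397 at 12-weeks. Their part was not tested. The log2 fold changes of Ccl11, Ccl17 and Ccl22 were -0.74, 0.18 and -0.56 at 4-weeks and -0.15, 0.15 and -0.40 at 12-weeks, with unadjusted p above 0.05.

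Ccl21, which guides Ccr7+ dendritic cells and T cells along lymphatic vessels, was at 404, 382, 453, 406 and 312 in OA and 171, 276, 318, 409 and 309 in sham at 4-weeks. The groups overlapped, and the log2 fold change was 0.44 (SE 0.19), with an unadjusted p of 0.0381 and an adjusted p of 0.612 in limma. At 12-weeks it was 0.32 (SE 0.35), and without sham replicate 3 of that week it was 0.67, with an unadjusted limma p of 0.0179. Its receptor Ccr7 had log2 fold changes of -0.25 (SE 0.28) and -0.22 (SE 0.22), and Ccl27 of -0.66 (SE 0.37) and -0.22 (SE 0.24). The 12-week mean of Ccl27 passed 10 only through sham, at 11.0 ± 2.07 (SD, n = 4) against 9.22 ± 1.04 in OA, so that value is a description.

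The ligands of Cxcr2, which attract neutrophils, did not pass the test. Cxcl2 was at 4558, 6525, 3228, 4983 and 3679.7 in OA and 6054, 4569.7, 1365, 5149 and 5176 in sham at 4-weeks, and at 8592, 8717, 7806 and 5518 in OA and 6453, 7169, 9228 and 7983 in sham at 12-weeks. The groups overlapped, with log2 fold changes of 0.16 (SE 0.35) and -0.020 (SE 0.16) and adjusted p-values of 0.904 and 0.962 in limma. The value at 4-weeks turned to -0.23 when sham replicate 3 was left out. Cxcl1 had log2 fold changes of 0.18 (SE 0.26) and -0.075 (SE 0.18), and Cxcl3 of -0.78 (SE 0.40) and -0.045 (SE 0.28). Without sham replicate 3 the value of Cxcl3 at 4-weeks was -0.99, with an unadjusted limma p of 0.0276.

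Cxcl12, which keeps leukocytes in tissue through Cxcr4, was at 3986, 3698, 3807, 3946 and 4769.6 in OA and 3822, 4460.2, 3314, 3603 and 5332 in sham at 4-weeks. The 12-week values were 4069, 4143, 4629 and 3553 in OA and 4915, 4295, 4658 and 4022 in sham. The log2 fold changes were -0.0079 (SE 0.13) and -0.13 (SE 0.093), with adjusted p-values of 0.990 and 0.576 in limma. Cxcl13, the B cell attractant that binds Cxcr5, was at 3086, 4132, 3425, 3809 and 1283 in OA and 3361, 1948, 3087, 2644 and 3379 in sham at 4-weeks and at 5863, 6523, 6194 and 8552 in OA and 7873, 3953, 5926 and 7802 in sham at 12-weeks. Its libraries spread widely within each group, and the log2 fold changes of 0.048 (SE 0.28) and 0.12 (SE 0.21) had adjusted p-values of 0.969 and 0.822 in limma. Cxcl17 entered at 4-weeks only, and its mean passed 10 only through sham, at 15.1 ± 11.2 (SD, n = 5) against 6.39 ± 3.51 in OA, so its lower value is given with no test. Its sham values ran from 7.37 to 34.8, with the highest in sham replicate 3 and the other 4 at or below 12.6, and its OA values from 2.86 to 11.9. Leaving that library out took its mean below 10.

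Cxcl16 (ENSRNOG00000026647), an anchored ligand that binds Cxcr6 and also takes up oxidized lipoprotein, was at 1947, 2119, 2094 and 2647 in OA and 1774, 1437, 1754 and 1886 in sham at 12-weeks. All 4 OA libraries exceeded all 4 sham libraries, and Cxcl16 was the only member with no overlap at that time, against 6.29% of all genes. The log2 fold change was 0.36 (SE 0.11), below the study's fold criterion, with an adjusted p of 0.299 in limma and an exact permutation p of 0.0286. At 4-weeks it was at 2199.8, 2138, 2132, 2057 and 1869 in OA and 2749.7, 1945, 1583, 1983 and 2164 in sham, with a log2 fold change of 0.017 (SE 0.12) whose sign turned under other scalings. Cxcr6, tested at 12-weeks only, had a log2 fold change of 0.27 (SE 0.29). Of 12 macrophage markers, 11 had a positive log2 fold change in each week, with medians of 0.12 at 4-weeks and 0.14 at 12-weeks. At an unadjusted limma p under 0.05 there were 0 and then 1, against 7.92% and 12.4% of all genes. The markers summed to 94773 to 120629 in OA and 88139 to 104908 in sham at 4-weeks. At 12-weeks the sums were 137763 to 159903 and 112189 to 162991. The part of macrophage number in Cxcl16 was not tested.

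Of the receptors of CC ligands, Ccr1, which binds Ccl3, Ccl5 and Ccl9, was at 767, 715, 1034, 689.5 and 697 in OA and 788, 1102, 789, 866 and 970.3 in sham at 4-weeks and at 1453, 1418, 1089.6 and 1461 in OA and 1363, 1638, 1005 and 1938 in sham at 12-weeks. Its log2 fold changes were -0.22 (SE 0.13) and -0.10 (SE 0.18), with adjusted p-values of 0.676 and 0.830 in limma. Ccr6, the receptor of Ccl20, had log2 fold changes of 0.49 (SE 0.23) and 0.15 (SE 0.23), and without sham replicate 3 the value at 4-weeks was 0.64, with an unadjusted limma p of 0.00918. Ccr9 had a log2 fold change of -0.34 (SE 0.27) at 12-weeks.

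Cxcr4, the receptor of Cxcl12, was at 1891, 1919, 1425, 2305 and 1911 in OA and 2982, 1098, 856, 1465 and 1316 in sham at 4-weeks, where sham replicate 1 was far above the other sham libraries. The 12-week values were 2165, 2277, 2188 and 1706 in OA and 1816, 2114, 1729.8 and 1524 in sham. The log2 fold changes were 0.41 (SE 0.27) and 0.22 (SE 0.12), with adjusted p-values of 0.693 and 0.457 in limma. Without sham replicate 1 the 4-week value was 0.69, with an unadjusted p of 0.00148 and an adjusted p of 0.346 in limma, and over all alternatives the adjusted p at 4-weeks ran from 0.346 to 0.891. Without sham replicate 3 it was 0.24. The neutrophil receptors Cxcr1 and Cxcr2 had log2 fold changes of 0.50 (SE 0.41) and 0.29 (SE 0.43) at 4-weeks and of 0.13 (SE 0.76) and 0.25 (SE 0.30) at 12-weeks. At 4-weeks Cxcr2 was at 196 and 179 in OA replicates 1 and 3, at 47.4 to 55.3 in the other OA libraries and at 41.8 to 115 in sham. The 10 neutrophil markers summed to 1182 to 14996 in OA and 1618 to 4948 in sham at 4-weeks and to 1241 to 4029 and 1500 to 5574 at 12-weeks. OA replicates 1 and 3 also held the highest neutrophil sums at 4-weeks, 12827 and 14996. The part of neutrophils in Cxcr2 was not tested. Cxcr5 had log2 fold changes of -0.37 (SE 0.24) and -0.12 (SE 0.18), and Xcr1, carried by cross-presenting dendritic cells, of -0.39 (SE 0.21) and -0.015 (SE 0.24).

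Of the 3 atypical receptors tested, Ackr2, which removes inflammatory CC chemokines, was at 42.8, 59.2, 52.6 and 66.5 in OA and 39.3, 30.1, 43.2 and 36.8 in sham at 12-weeks. The lowest OA library, at 42.8, lay just below the highest sham library, at 43.2, and the others did not mix. On the log2 scale OA minus sham came to 0.55 (SE 0.18), and limma gave an adjusted p of 0.325. The exact permutation p was 0.0571. At 4-weeks Ackr2 was at 28.4, 25.7, 26.8, 29.1 and 27.1 in OA and 12.9, 26.2, 27.9, 44.5 and 26.7 in sham, with a log2 fold change of 0.085 (SE 0.27) whose sign turned under edgeR and DESeq2. Ackr3, which binds Cxcl11 and Cxcl12, was at 720.3, 925, 733, 915 and 1084 in OA and 870.2, 764, 787, 1004 and 681 in sham at 4-weeks and at 1367, 1102, 1413 and 963 in OA and 808, 749, 2019.8 and 1078 in sham at 12-weeks. Its log2 fold changes were 0.087 (SE 0.13) and 0.16 (SE 0.27), with adjusted p-values of 0.862 and 0.823 in limma, and without sham replicate 3 the value at 12-weeks was 0.46. Ackr4, which removes Ccl19, Ccl21 and Ccl25, was at 258, 337, 421, 322 and 435 in OA and 376, 533, 485, 429 and 297 in sham at 4-weeks and at 331, 357, 312 and 378 in OA and 308, 417, 557 and 275 in sham at 12-weeks. Its log2 fold changes were -0.25 (SE 0.17) and -0.12 (SE 0.19), with adjusted p-values of 0.711 and 0.805 in limma.

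The effect of OA on a member was compared between 12 and 4 weeks as an interaction in limma, fitted to the log2 CPM of recovered reads in all 18 libraries. It called 0 members and 0% of the 15107 genes tested, and edgeR and DESeq2 called 0 members. At an unadjusted p under 0.05 there were 2 of 43 members, Ccl9 and Cxcl16, against 3.51% of all genes, so the share was close to that of the table as a whole. For Ccl9 the difference of the log2 fold changes was 1.59 (SE 0.57), with an adjusted p of 0.937 in limma. The difference was 0.37 (SE 0.17) for Cxcl16, also with an adjusted p of 0.937. Ccr10, the receptor of Ccl27 and Ccl28, came next with 0.81 (SE 0.41) and an unadjusted p of 0.0659. At 4-weeks its mean passed 10 only through sham, at 13.9 ± 4.25 (SD, n = 5) against 8.44 ± 3.08 in OA, and at 12-weeks only through OA, at 11.2 ± 1.96 (SD, n = 4) against 9.94 ± 2.37 in sham. Its values are therefore a description, and the difference between weeks supports no change. It was at 12.5, 3.81, 8.93, 8.31 and 8.68 in OA and 16.6, 7.76, 18.6, 11.7 and 14.7 in sham at 4-weeks and at 11.3, 13.3, 8.58 and 11.8 in OA and 8.31, 11.2, 7.63 and 12.6 in sham at 12-weeks, and the groups overlapped in both weeks. Its log2 fold changes within the weeks were -0.68 (SE 0.36) and 0.17 (SE 0.26). For Cxcl10 the difference was -0.052 (SE 0.21) and for Cxcl14 it was -0.36 (SE 0.51), so a change of the OA effect between weeks was not detectable for them.

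**Figure D4:**
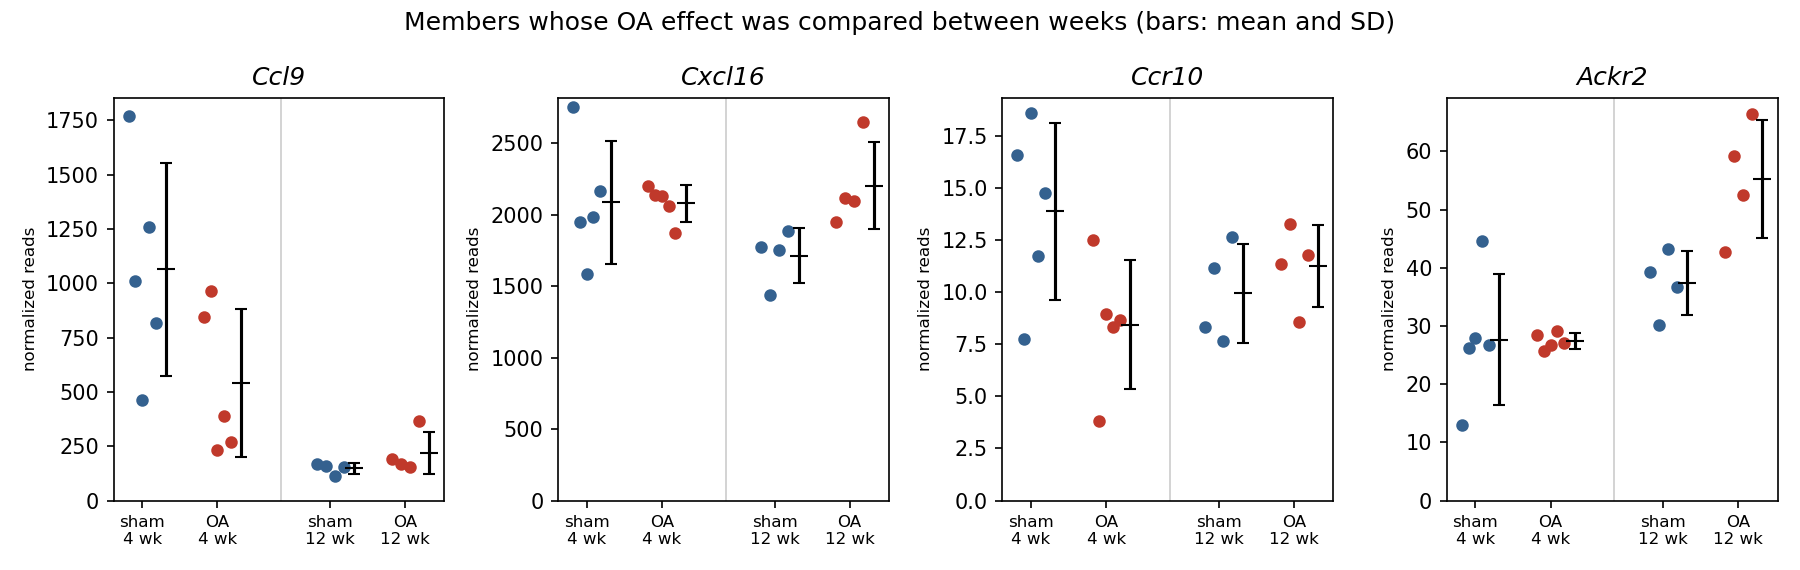
Normalized reads (y axis, from 0) of Ccl9, Cxcl16, Ccr10 and Ackr2 in each sham (blue) and OA (red) library at 4 and 12 weeks, with black bars for the mean and SD. Ccl9 sits lower in OA at 4 weeks and higher at 12 weeks, and the OA and sham libraries of Cxcl16 are parted at 12 weeks only.

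Genes that act after the receptor, or upstream of the ligands, were counted from lists of known members. Of 41 tested genes of chemokine receptor signalling, 2 were higher in OA at an unadjusted p under 0.05 at 4-weeks (Pik3cg and Rgs10) and 0 were lower. At 12-weeks 2 were higher (Pik3r5 and Rgs10) and 2 lower (Ptk2b and Bcar1), and limma called 0 in either week. These shares, 4.88% and 9.76%, were below those of all genes, 7.92% and 12.4%. The log2 fold change was positive for 34 of the 41 (82.9%) at 4-weeks and 22 (53.7%) at 12-weeks, against 57.1% and 47.5% of all genes. Rgs10, which shortens G protein signals in myeloid cells, was at 2039 ± 275 (SD, n = 5) in OA and 1709 ± 120.0 in sham at 4-weeks and at 2299.8 ± 163 (SD, n = 4) and 1874 ± 254 at 12-weeks. Its log2 fold changes were 0.25 (SE 0.10) and 0.30 (SE 0.10), with adjusted p-values of 0.594 and 0.318 in limma. Pik3r5, a regulatory subunit of the phosphoinositide 3-kinase that these receptors activate, had a log2 fold change of 0.51 (SE 0.17) at 12-weeks.

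Of 15 genes of the NF-kB pathway, 0 passed an unadjusted p under 0.05 at 4-weeks, and 3 did at 12-weeks, all lower in OA (Rela, Relb and Bcl3), which was 20% of the list against 12.4% of all genes. The log2 fold change was positive for 9 of the 15 (60%) at 4-weeks and 3 (20%) at 12-weeks, against 57.1% and 47.5% of all genes. Relb, a subunit of NF-kB, was at 424 ± 22.8 in OA and 519 ± 27.6 in sham (SD, n = 4), with a log2 fold change of -0.29 (SE 0.071) and an adjusted p of 0.269 in limma. Of the 12 inducing cytokines, 5 had enough reads to be tested, and 0 passed in either week. Il1b was at 2203 ± 688 in OA and 1890.3 ± 992 in sham at 4-weeks, with a log2 fold change of 0.32 (SE 0.31), and at 12-weeks the log2 fold change was 0.20 (SE 0.17).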

How the data were processed

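RNA was sequenced from CD11b/c bead-sorted synovial cells of 18 pools of rats, grouped by surgery and week from the sample labels. The authors filtered reads with fastp 0.20.0, aligned them to Rnor_6.0 with STAR 2.7.6a, counted them with featureCounts 2.0.0 and divided them by DESeq2 1.24.0 size factors within each week; versions are from the submitters' processing notes. The deposited values are this signal of normalized reads per gene. The strand setting is not given in the sources used here, and the library kit was a stranded total RNA kit. The deposited tables also hold the authors' own log2 fold changes, standard errors, statistics and p-values, which were not used. In every library 100% of values were whole multiples of 1 read (tolerance 0.05), so reads were recovered.

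OA was compared with sham within each week in limma 3.58.1 (R 4.3.3) with a mean-variance trend on log2(normalized reads + 1), so fold changes of low genes are understated. Genes needed a mean of at least 10 to enter, and p-values were adjusted by Benjamini-Hochberg over all genes that did. Calls required an adjusted p under 0.05 and 0.5 or more of log2 fold change either way. The difference between weeks used log2 CPM of the recovered reads with TMM scaling and a prior count of 2. Single genes were tested by exact permutation (two-sided). edgeR 4.0.16 and DESeq2 1.42.0 on the recovered reads were alternatives, and the steps were tested on simulated data. Libraries of a group are pools of different rats; p-values measure the spread between pools. Counting and permutation ran in Python 3.11.15 (scipy 1.17.1, pandas 2.3.3, numpy 2.4.6). Promoter windows are from RefSeq (GRCr8), whose build differs from the authors'.

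Values in every library are given for the 5 ligands and 5 receptors with the highest mean over both tables, the 5 members with the smallest unadjusted p in each week and the 3 with the smallest p of the difference between weeks; other members with an unadjusted p under 0.05, and Cx3cr1 as a partner, were added. Values of 1 receptor are not reported here, though it is counted among the members. The members, gene lists and marker lists were chosen with earlier results of these data known.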

Additional observations from a re-analysis of the deposited data

Results flagged for a closer look

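In 17 of 162 groups of libraries examined (10.5%), 1 library lay far from the others of its group, where chance gives about 1 in 20. No such rate is given over all genes, so the share cannot be read as particular to the members. Of the 17, 7 came from sham replicate 3 at 4 weeks, the library with the fewest reads, which held the highest or lowest value of 64.1% of all genes tested. It was lowest for Ccl3 at 160.1 (the others 489 to 577), for Ccl12 at 6.96 (23.0 to 25.8), for Ccl2 at 2203 (3084 to 3386) and for Ccl7 at 1239 (1770.1 to 1906). It was highest for Cxcl17 at 34.8 (7.37 to 12.6), for Cxcr1 at 27.9 (6.79 to 10.1) and for Cxcr5 at 459.6 (185 to 254).

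The other libraries that lay apart were scattered. Sham replicate 4 at 4 weeks was highest for Ccl22 at 38.7 (16.6 to 21.3) and for Cxcl14 at 116 (35.9 to 57.1). Sham replicate 1 was highest for Cxcl11 at 37.8 (23.2 to 26.2) and for Cxcr4 at 2982 (856 to 1465). OA replicate 3 was highest for Ccl24 at 2325 (1080.2 to 1286) and for Ccr1 at 1034 (689.5 to 767), and OA replicate 5 for Cxcl12 at 4769.7 (3698 to 3986). At 12 weeks sham replicate 2 was lowest for Cx3cl1 at 550.0 (832 to 888), OA replicate 3 was lowest for Ccr1 at 1089.6 (1418 to 1461), and OA replicate 4 was highest for Cxcr6 at 17.2 (11.2 to 11.8).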

How the results depend on the processing

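Over pseudocounts of 0.5 and 5, every gene with a read, genes averaging 50 or more, a replicate block, TMM, DESeq2, edgeR, no fold-change minimum and each library left out, limma and edgeR called 0 members in each comparison, and DESeq2 called 0 at 4 weeks and for the difference between weeks, and 1 at 12 weeks (Cxcl10, log2 fold change -0.53), where it also called Cx3cr1 (log2 fold change 0.81). With the replicate block 0 members were called in either week, 15 and 8 had an unadjusted p under 0.05, and the smallest adjusted p was 0.310 and 0.0892 in limma. The labels give replicate numbers and do not say whether same-numbered OA and sham libraries belong together. Deviations of same-numbered libraries correlated at -0.13 to 0.080 at 4 weeks and -0.026 to 0.30 at 12 weeks. So few pairs cannot settle it. Leaving out 1 library gave 0 called members each time, also without sham replicate 3 at 12 weeks, where 81 of all genes were called, with 5 to 13 members at an unadjusted p under 0.05 at 4 weeks and 6 to 9 at 12 weeks. Cxcl9, Cxcl10, Cxcl14 and Cx3cl1 kept their sign under every alternative run, and the unadjusted p of these fits stayed under 0.05 except for Cxcl9 at 4 weeks without OA replicate 1 (0.0505). By exact permutation of all libraries p was above 0.05 for all 4 at 12 weeks (0.0571 to 0.0857) and for Cxcl9 at 4 weeks (0.0556).

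At 4 weeks Cxcl16 turned to -0.0083 with TMM, -0.027 with edgeR and -0.025 with DESeq2, and Ackr2 to -0.020 with edgeR and -0.013 with DESeq2. Ccl4 at 4 weeks and Cxcr3 at 12 weeks also turned with edgeR and DESeq2, to -0.16 and -0.13 and to -0.25 and -0.23, and Cxcl2 at 12 weeks turned to 0.00023 with edgeR. The cause was not tested. Leaving out 1 library turned the sign of 12 of 41 members at 4 weeks and 18 of 42 at 12 weeks, 0 of them with an unadjusted p under 0.05 with every library in. Ranges are given for 5 of these at 4 weeks and 8 at 12 weeks. At 4 weeks they ran from -0.23 to 0.31 for Cxcl2, -0.086 to 0.35 for Cxcl13, -0.080 to 0.092 for Cxcl12, -0.076 to 0.12 for Cxcl16 and -0.15 to 0.28 for Ackr2. At 12 weeks they ran from -0.10 to 0.13 for Cxcl2, -0.090 to 0.24 for Cxcl13, -0.095 to 0.080 for Ccl2, -0.28 to 0.040 for Ccr1, -0.012 to 0.46 for Ackr3, -0.27 to 0.068 for Ackr4, -0.28 to 0.060 for Ccl24 and -0.19 to 0.12 for Ccr3. Depth limits genes of few reads, such as Cxcl11, Cxcr1 and Cxcr6.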
